A study of Homo sapiens with 44 samples.

Results

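The comparison asks how the pulldown of mRNA by an antibody against N6-methyladenosine (m6A) differed between Kelly and NGP, 2 established human neuroblastoma cell lines, when neither had received the drug under study. It used 12 of the 44 libraries of the series. These were 3 input and 3 pulldown libraries of each line, all from cells given DMSO for 6 days. Both lines are labelled MYCN-amplified and genotype WT. Input libraries are RNA-seq of sonicated poly(A) RNA, and the pulldown libraries (meRIP-seq, called RIP here) hold the fragments of such RNA that the antibody retained. The members were the 7750 of 19923 protein-coding genes whose input averaged 10 CPM (counts scaled to library size) or more in both lines, and all of them passed the filter on low counts. The other libraries served only as a look at the same genes elsewhere. These were both lines given 8 µM STM2457, an inhibitor of METTL3, for 6 days, Kelly cells given DMSO for 1 day, and Kelly xenografts of vehicle-treated nude mice, called DMSO in the labels, taken at 14 days.

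m6A is placed on mRNA in the nucleus by a complex whose catalytic subunit is METTL3 and whose RNA-binding partner is METTL14. It is laid down mostly at short motifs such as GGACT in long internal exons and near stop codons, is removed by ALKBH5 and FTO, and is bound by reader proteins such as the YTH family. Junction-rich coding regions made of short exons carry little of it, and mRNAs of ribosomal proteins are known for low levels. Neuroblastoma is a tumour of the sympathetic lineage, and its adrenergic cell state is set by transcription factors such as HAND2 and GATA3.

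Enrichment below is log2 of RIP over input. A difference is Kelly enrichment minus NGP enrichment, so a positive value means that the pulldown favoured the gene more in Kelly. A gene is called when the adjusted p of edgeR's quasi-likelihood test is under 0.05 after Benjamini-Hochberg adjustment over the 13684 genes tested. Libraries were scaled to one another by their bulk of genes (TMM), so 0 marks the level of a typical mRNA and not an absence of m6A. The spike-in RNAs named in the labels are not analysed here. When RIP and input were instead scaled so that the 13 mRNAs encoded by mitochondrial DNA did not change, the median difference of the members moved from -0.19 to 3.83, and 6594 of 6628 called members (99.5%) were higher in Kelly. Every direction given below, for a gene or a list, is therefore relative to the bulk of mRNAs. On the mitochondrial scale the medians of the lists described below as higher in NGP lay above 0, except that of the mitochondrially encoded mRNAs themselves.

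The sequences below show coding stretches of genes from both ends of the comparison, since base composition and the results moved together. FOXO6 and LRFN4 had the largest differences towards Kelly. CBR4 and CASK had the largest towards NGP among genes with any fragment in a Kelly RIP library. COX7C was enriched in NGP and depleted in Kelly. The stretches come from the canonical GENCODE 44 transcripts on GRCh38, read 5′ to 3′ on the coding strand, with GGACT in capitals. The first 4 are the 90 bases that lie within 1 coding exon around the GGACT nearest the stop codon, and the last is the whole coding sequence of COX7C without its stop codon.
FOXO6: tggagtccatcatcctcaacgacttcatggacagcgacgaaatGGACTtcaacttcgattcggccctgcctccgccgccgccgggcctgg
LRFN4: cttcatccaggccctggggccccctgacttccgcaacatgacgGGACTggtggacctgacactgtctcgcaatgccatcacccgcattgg
CBR4: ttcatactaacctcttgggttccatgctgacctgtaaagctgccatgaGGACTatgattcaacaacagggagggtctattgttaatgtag
CASK: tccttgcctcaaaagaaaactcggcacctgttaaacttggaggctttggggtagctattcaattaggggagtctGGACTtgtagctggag
COX7C: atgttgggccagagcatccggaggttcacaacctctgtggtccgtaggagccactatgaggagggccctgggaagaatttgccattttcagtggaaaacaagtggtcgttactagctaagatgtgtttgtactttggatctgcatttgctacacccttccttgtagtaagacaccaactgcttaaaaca
The FOXO6 stretch lies at chr1:41382551-41382640 on the plus strand, and that of LRFN4 at chr11:66857918-66858007 on the plus strand. That of CBR4 lies at chr4:169006755-169006844 and that of CASK at chrX:41671428-41671517, both on the minus strand. The coding exons of COX7C lie within chr5:86617941-86620962 on the plus strand. The whole transcripts of FOXO6 and LRFN4 had a GC content of 74.0% and 69.9%, against 34.9% for CBR4, 45.1% for CASK and 40.7% for COX7C. COX7C holds no GGACT in its transcript of 629 bases, whereas FOXO6 holds 3, LRFN4 holds 4, CBR4 holds 1 and CASK holds 5. These counts are for the canonical transcripts, and the longest protein-coding transcript of COX7C, of 1584 bases, holds 1. Of the 7650 members matched to a transcript by name, 7116 (93.0%) hold GGACT on the transcript strand at least once in their longest protein-coding transcript, so its presence alone is no mark of these genes.

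Total counts ran from 12.09 to 12.78 M in the Kelly inputs, 10.53 to 11.17 M in the Kelly RIP libraries, 5.585 to 11.05 M in the NGP inputs and 15.57 to 24.07 M in the NGP RIP libraries. All 10 neuroblastoma markers checked reached 1 CPM in the Kelly inputs, and 9 of 10 did in the NGP inputs, where TH, the first enzyme of catecholamine synthesis, did not. Their summed level was 30900 to 31600 CPM in Kelly and 11980 to 13810 CPM in NGP. The 10 fibroblast, Schwann and blood cell markers found in the tables summed to 136.7 to 143.7 CPM in Kelly and 121.6 to 153.8 CPM in NGP. The blood gene PTPRC had no fragment in either line. File headers place the 6-day Kelly libraries in 1 folder and the NGP libraries in another, so line and folder cannot be told apart. Nothing in the labels says that the replicates were separate cultures, so the p-values measure the spread between these samples, which may be technical.

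Enrichment spread over a wider range in Kelly than in NGP. The SD of log2 enrichment over the 7750 members was 2.06, 2.06 and 2.16 in the 3 Kelly RIP libraries. In the 3 NGP RIP libraries it was 1.26, 1.22 and 1.21. The groups did not overlap, and the means differed by 0.86 (2.09 ± 0.06 against 1.23 ± 0.03, SD, n = 3 each; two-sided exact permutation test, p = 0.1, the smallest p that 3 against 3 libraries allow). The gap was 0.86 as well after all libraries were thinned to the shallowest of them. In treated cells the SD was 1.92 to 2.22 in Kelly and 1.13 to 1.19 in NGP. Kelly at 1 day gave 1.81 to 1.82, and the 2 vehicle xenografts gave 2.05 and 2.27, so each of these other Kelly libraries also lay above the NGP libraries. The lower end of the Kelly range was long. There, 40, 43 and 163 members had no fragment in RIP replicates 1, 2 and 3, while no member was at 0 in an NGP RIP library. After thinning, the Kelly counts at 0 were 55, 65 and 194, and the NGP counts stayed at 0, so Kelly RIP replicate 3 stood apart at either depth.

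**Figure D1:**
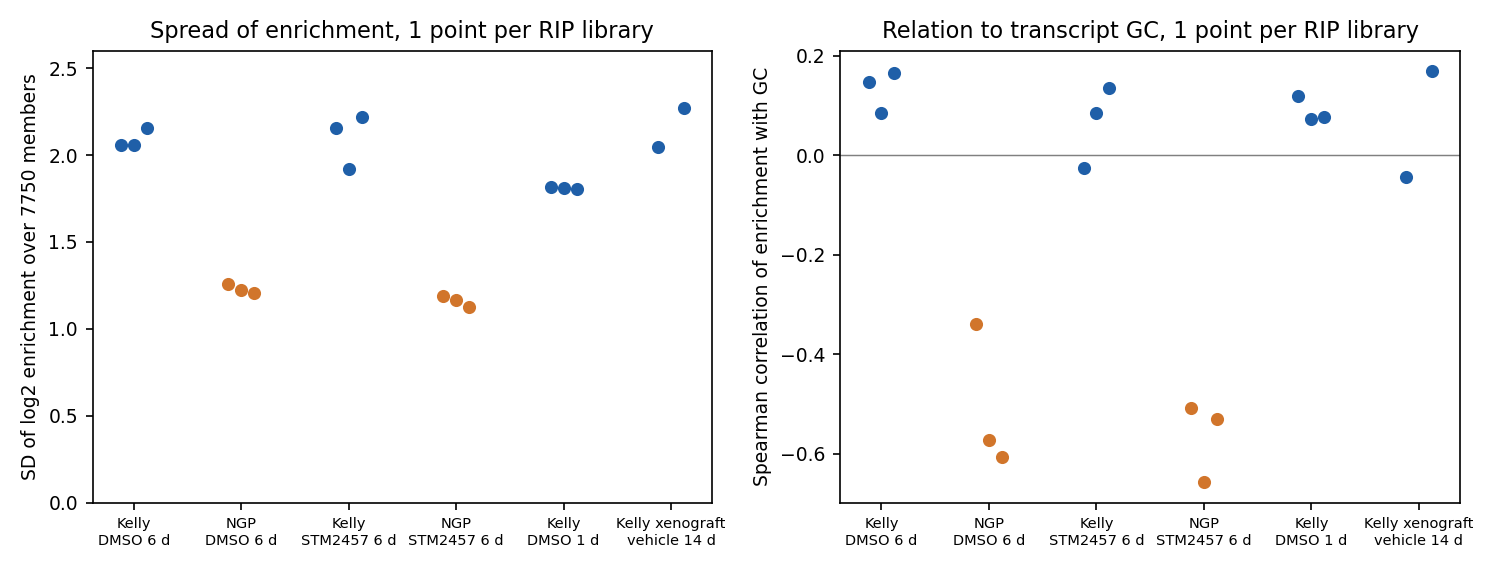
Left, SD of log2 enrichment over the 7750 members in each RIP library (axis from 0); right, Spearman correlation over genes between a library's enrichment and transcript GC content. Each point is 1 library, blue for Kelly and orange for NGP. NGP libraries sit at 1.13 to 1.26 on the left and at or below -0.34 on the right, apart from every Kelly group shown.

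The lines shared an order of genes but not its extent. Over the members, the Spearman correlation between Kelly and NGP enrichment was 0.565, a description across genes that share libraries and are not replicates. In Kelly, 2126 members were called at least 2-fold enriched and 3246 at least 2-fold depleted. In NGP the numbers were 1300 and 1970. The 865 members enriched in both lines made up 40.7% of the Kelly set and 66.5% of the NGP set, and the 1381 depleted in both made up 42.5% and 70.1%. Opposite calls were few. Of all members, 60 were enriched in Kelly and depleted in NGP, and 120 were depleted in Kelly and enriched in NGP.

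Enrichment differed between the lines for 4806 members, which is 62.0% of them, against 46.1% of all genes tested. Of these, 2220 were higher in Kelly (28.6% of members; 22.2% of all genes tested) and 2586 were higher in NGP (33.4% and 23.9%). At least 2-fold differences made up 4256 of the calls, 1892 higher in Kelly (24.4% of members) and 2364 higher in NGP (30.5%), where 42.0% of all genes tested passed in either direction. The enrichment of the 3 Kelly RIP libraries did not overlap that of the 3 NGP RIP libraries for 5777 members (74.5%, against 66.6% of all genes tested). The median difference was -0.19, and the middle 90% of members lay between -3.47 and 2.34. Leaving out Kelly RIP replicate 3 left 5068 calls.

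Because the unscaled difference follows the level of enrichment when one line has the smaller spread, the contrast was repeated with NGP enrichment multiplied by 1.765, the ratio of the fitted SDs (2.17 and 1.23), and centred on the median member. With spread matched in this way, 3971 members were called (51.2%; 37.0% of all genes tested). Of these, 2078 (26.8%) were higher in Kelly and 1893 (24.4%) in NGP. Both contrasts called 3200 members, and 3153 of those had the same direction. Most calls thus remained when the narrower NGP range was allowed for, while the NGP side of the count was the smaller in place of the larger.

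**Figure D2:**
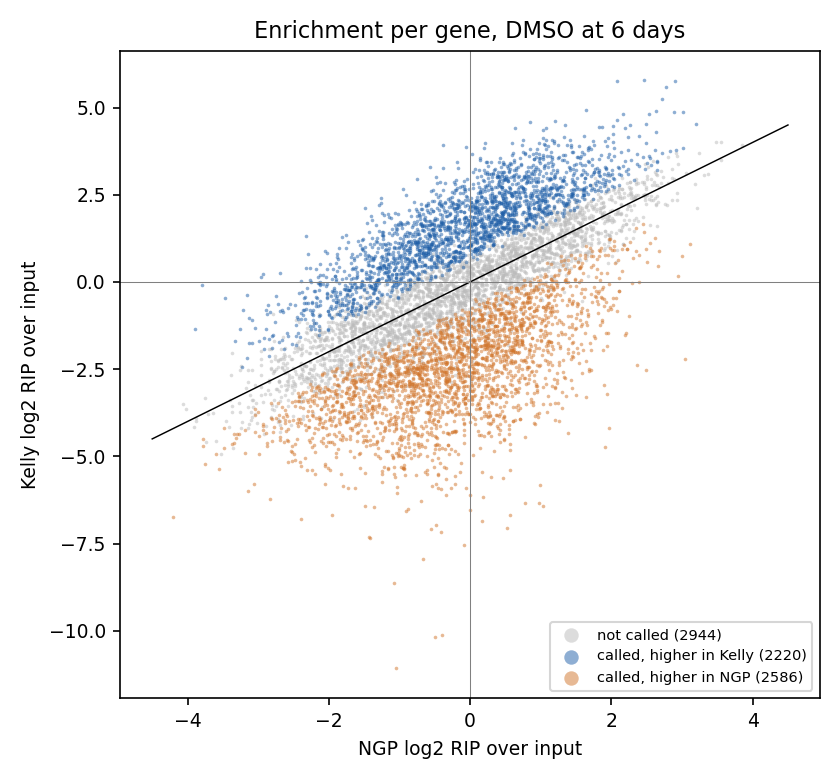
Fitted log2 enrichment of the 7750 members in Kelly (vertical) against NGP (horizontal), DMSO at 6 days, with the line of equal values. Blue points were called higher in Kelly (2220), orange points higher in NGP (2586), relative to the bulk of mRNAs; on the mitochondrial scale 99.5% of called genes are higher in Kelly. The cloud is taller than it is wide, with a tail of genes depleted in Kelly alone.

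Of the 10 largest differences towards Kelly, 8 lay in genes of the quintile of members with the highest GC content. FOXO6, a forkhead transcription factor (chr1, GRCh38), had 15.6, 16.7 and 12.2 CPM in the Kelly inputs and 136, 165 and 318 CPM in the Kelly RIP libraries. In NGP it had 16.6, 32.9 and 22.4 CPM in input and 28.3, 15 and 16.1 CPM in RIP. RIP thus exceeded every input many times over in Kelly, while the NGP values overlapped. The difference was 4.31 ± 0.50 (SE; edgeR adjusted p = 1.36e-05). LRFN4, a synaptic adhesion protein, went from 43.8 to 50.1 CPM in Kelly input to 470, 590 and 815 CPM in Kelly RIP. In NGP it had 30.3 to 46.7 CPM in input and 72.2, 26.4 and 25.7 CPM in RIP. NGP RIP replicate 1 alone exceeded its inputs. The difference was 3.93 ± 0.48 (SE; edgeR adjusted p = 2.19e-05). LRFN4 shares exon bases with PC, and fragments on shared bases were not counted. This limit holds for 2250 members (29%). Among the 10 largest here they include RPUSD1, C3orf80, FBXL6, ASAP2 and TSC22D4. Among genes named below they include CBR4, JTB, SRSF2, ITCH, ABCE1, NT5C2, NACA, C11orf74, HNRNPA2B1 and WTAP.

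TPGS1, a subunit of the tubulin polyglutamylase complex, differed by 3.86, ASAP2, a GTPase-activating protein for ARF proteins, by 3.71, and TSC22D4 by 3.67. In each of these the Kelly RIP libraries were enriched and the NGP RIP libraries were at or below 0, except NGP replicate 1 of TPGS1 at 0.06. ASAP2 had the lowest GC content of these 10 genes, 46.4%. Its enrichment was 2.81 to 2.97 in the Kelly RIP libraries and -0.80 to -0.59 in those of NGP, but the mean at 1 day in Kelly was -2.18, opposite to the 6-day value. FBXL6, an F-box protein, differed by 3.72 in another way. It was near 0 in Kelly, with per-library values of -0.35, -0.33 and 0.34, and was depleted in NGP, with -3.47, -2.94 and -3.13. The Kelly mean of FBXL6 was in or below that range at 1 day (-2.95) and in the xenografts (-4.25). In treated Kelly cells at 6 days it was -1.36, above that range. The difference was called again in the treated libraries (2.65, edgeR adjusted p = 0.00151). N4BP3 (3.67), RPUSD1 (3.77), FAM171A2 (3.77) and C3orf80 (3.74) complete the 10 largest. FAM171A2 was at -1.03 in Kelly at 1 day. After each library's trend with GC content was taken out (GC adjustment), all 10 were still called higher in Kelly, with differences from 1.16 for TPGS1 to 4.53 for ASAP2. That of FOXO6 was then 1.51 and that of LRFN4 1.89. With the spread matched as well, only ASAP2, FBXL6 and TSC22D4 of the 10 were still called. FOXO6 gave 0.37 (edgeR adjusted p = 0.72) and LRFN4 0.55 (edgeR adjusted p = 0.455). TPGS1, RPUSD1, FAM171A2, N4BP3 and C3orf80 also lost their calls, with N4BP3 at -0.44 and FAM171A2 at -0.03.

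At the other end, the Kelly RIP libraries held few or no fragments of some mRNAs that the NGP RIP libraries held. CAT, the gene of catalase, had 19.5, 22.5 and 16.7 CPM in the Kelly inputs and no fragment in any Kelly RIP library. In NGP it had 31.5, 16.1 and 26.8 CPM in input and 13.5, 12.3 and 12.6 CPM in RIP. Against a floor of 3 counts per library, its enrichment was at least 31.3-fold lower in Kelly. ITCH, a ubiquitin ligase, was at least 25.4-fold lower and FOPNL, a centrosomal protein, at least 24.7-fold lower on the same terms. All 3 were called (edgeR adjusted p from 3.98e-06 to 7.19e-06). Only FOPNL had a called difference in the treated libraries. There CAT gave -1.60 (edgeR adjusted p = 0.431) and ITCH -2.09 (edgeR adjusted p = 0.230).

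CBR4, a mitochondrial reductase, had 13.7, 14.2 and 15.5 CPM in Kelly input and 0.277, 0 and 0 CPM in Kelly RIP. Its NGP libraries held 15.9 to 26.8 CPM in input and 28.9, 32.6 and 36.6 CPM in RIP. JTB, a membrane protein, went from 11.2 to 13.9 CPM to 0, 0 and 0.38 CPM in Kelly, and from 12.1 to 25.4 CPM to 31.4, 43.4 and 46.7 CPM in NGP. SRSF2, a splicing factor, fell from 28.3 to 37.6 CPM in Kelly input to 0.277, 0.0895 and 0.095 CPM in RIP, and had 49.2 to 55.3 CPM in NGP input and 29.2, 57.3 and 68.3 CPM in RIP. The Kelly RIP values of all 3 rest on a handful of fragments, so their differences (-7.56 for CBR4, -7.45 for JTB and -7.45 for SRSF2) are imprecise in size. With 3 fragments in all, CBR4 was 233-fold lower in Kelly by pooled counts, with an exact 95% Poisson interval of 79.9 to 1.13e+03 that covers counting error only. CBR4, JTB and SRSF2 were called again in treated libraries. CASK, a neuronal scaffold kinase, differed by -7.54 here and by -0.46 there (edgeR adjusted p = 0.852), and its Kelly RIP libraries held 1 fragment (290-fold lower, 95% interval 52.1 to 1.15e+04). ABCE1 (-7.32), OAT (198-fold lower from 2 fragments, 54.9 to 1.64e+03) and NT5C2 (199-fold lower from 3 fragments, 68 to 964) complete the 10. In treated libraries ABCE1 and OAT were called again, and NT5C2 was not (-1.55, edgeR adjusted p = 0.103).

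COX7C, a small subunit of cytochrome c oxidase, shows the contrast at high abundance. The Kelly inputs held 213.6, 343.0 and 249.5 CPM and the Kelly RIP libraries 7.57, 15.2 and 5.04 CPM. The NGP inputs held 215.0, 536.2 and 221.4 CPM and the NGP RIP libraries 802.6, 1751 and 1362 CPM. The antibody fraction was thus poorer than input in each Kelly library and richer than each input in NGP. The difference was -6.65 ± 0.64 (SE; edgeR adjusted p = 3.61e-06). COX6C, another subunit, differed by -5.26, NACA, a chaperone of nascent chains, by -5.72, and C11orf74 by -6.16. In all 4 the Kelly RIP libraries were below 0 and the NGP libraries above 0. At 1 day Kelly enrichment was -1.90 for COX7C and -1.66 for COX6C, less depleted than at 6 days. In the xenografts COX6C was at 1.51, on the side of NGP.

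Of the called members, 449 were at least 2-fold enriched in Kelly and at or below 0 in NGP, and 241 were the reverse. The first set had a median GC content of 61.2%, the second 39.9% and all members 50.3%. Because both sets were chosen on the 6-day DMSO libraries, other libraries give the independent view. At 1 day in Kelly, 90.6% of the first set and 18.3% of the second were above 0, against 41.0% of all members. In the xenografts these shares were 87.3% and 36.5%, against 39.3%. In treated NGP cells, 4.68% of the first set and all of the second were above 0, against 43.8% of all members. In the treated inputs, which do not enter the enrichment values, 36.3% of the first set and 10.8% of the second were called different between lines, against 21.4% of all members (23.8% of all genes tested).

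Some genes were high or low in both lines. PHF3, a reader of RNA polymerase II phosphorylation, was enriched by 3.99, 4.24 and 3.61 in the Kelly RIP libraries and by 3.49, 3.69 and 3.41 in those of NGP. GEMIN6, a subunit of the SMN complex, gave 3.27 to 4.64 and 3.25 to 4.19, and RPL36AL, a ribosomal protein gene, 2.56 to 4.17 and 3 to 3.95. The median of all ribosomal protein members was -4.25 in Kelly and -1.52 in NGP, far below RPL36AL. At the bottom, CYC1, a subunit of respiratory complex III, gave -4.43 to -3.38 in Kelly and -3.89 to -3.65 in NGP. The neuropeptide gene NPW gave -3.83 to -3.20 and -4.16 to -2.99. In these 5 genes the libraries of the lines overlapped, and in SIVA1, the third of the lowest, the Kelly libraries (-6.36 to -5.01) lay below those of NGP (-4.25 to -3.90). After GC adjustment PHF3 (2.39) and RPL36AL (1.21) were called higher in Kelly and CYC1 (-0.92) and NPW (-3.25) in NGP. With the spread matched instead, PHF3 (-2.17), GEMIN6 (-2.78) and RPL36AL (-2.70) were called higher in NGP. CYC1 (3.03) and NPW (2.81) were then called higher in Kelly, so these directions depended on the adjustment.

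Base composition went with the difference more than any other sequence feature measured. The Spearman correlation over genes between transcript GC content and the difference was 0.537, from 7650 members with a GC value. It was 0.11 with transcript length, 0.111 with the longest exon, -0.129 with the number of exons and 0.213 with GGACT per kilobase. These are descriptions across genes. Enrichment in NGP was lower at higher GC content (-0.511), while in Kelly the relation was weakly positive (0.141). Per library, the values were 0.148, 0.0844 and 0.166 in Kelly and -0.338, -0.573 and -0.607 in NGP. NGP RIP replicate 1 stood apart from its group, and leaving it out left 5098 calls. At 1 day Kelly gave 0.0735 to 0.120, and treated NGP -0.657 to -0.508.

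In the quintile of members with the lowest GC content (30.7% to 41.8%), median enrichment was -1.11 in Kelly and 0.58 in NGP, 78 genes were called higher in Kelly (5.10%) and 890 higher in NGP (58.2%). In the middle quintile (47.2% to 53.3%), the medians were -0.20 and -0.03, with 393 calls towards Kelly and 475 towards NGP. In the quintile with the highest GC content (59.3% to 74.8%), the medians were -0.07 and -1.25, with 903 calls towards Kelly (59.0%) and 158 towards NGP (10.3%). The direction of the median difference therefore turned around the middle of the GC range. With length, the median enrichment of both lines was higher in longer transcripts. From the shortest quintile to the longest, it went from -1.53 to 0.44 in Kelly and from -0.66 to 0.27 in NGP.

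**Figure D3:**
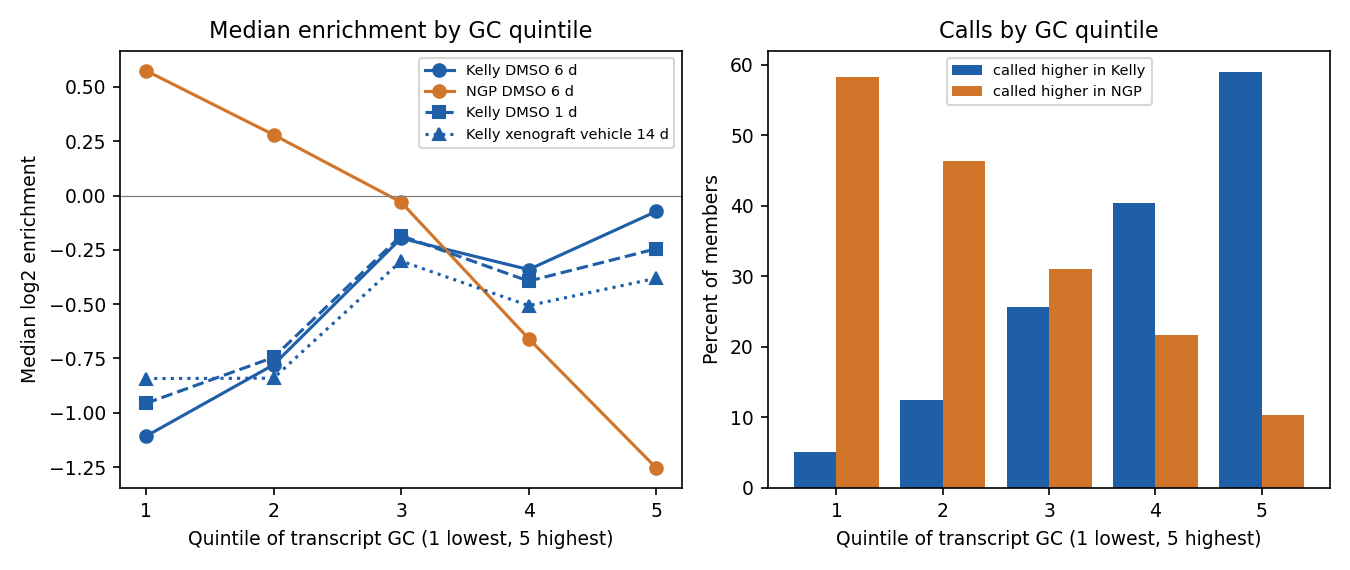
Left, median log2 enrichment in quintiles of the 7650 members by transcript GC content, for Kelly and NGP with DMSO at 6 days, Kelly at 1 day and vehicle xenografts. Right, percent of members called higher in Kelly (blue) or in NGP (orange), on the scale relative to the bulk of mRNAs. The NGP median goes from 0.58 to -1.25 while all 3 Kelly curves stay below 0 and end above where they start; the calls swap sides around the middle quintile.

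When each library's trend with GC content was taken out before the test, a choice made after seeing the data, 4555 members were called (59.5%; 45.8% of all genes tested), 2554 higher in Kelly and 2001 in NGP. Of the calls without this step, 3355 were kept with the same direction (70.7% of those with a GC value). With the spread matched as well, 1682 were called, 751 higher in Kelly and 931 in NGP. Called in the same direction in all of the plain, spread-matched and GC-adjusted contrasts were 2184 members, 1130 towards Kelly and 1054 towards NGP. This count does not require a call with both adjustments made together, which FOXO6 and LRFN4, for example, did not have. Whether base composition acted through the RNA, the antibody step or library preparation was not tested.

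The same comparison in STM2457-treated cells shares no library with the one above. It called 3615 members (46.6%; 35.6% of all genes tested). Both comparisons called 3160 members, which is 65.8% of the DMSO calls and 87.4% of the treated calls, and 3158 of them had the same direction. Among all DMSO calls, 97.5% had the same sign in treated cells. The Spearman correlation of the differences over genes was 0.902. Kelly at 6 days resembled Kelly at 1 day (0.910) and the xenografts (0.847) more closely than NGP did (0.618 and 0.599).

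The m6A machinery was counted as enzymes with their partners and as readers, and the difference between these lists was not tested. Of 10 members that write or erase m6A, 5 were called higher in Kelly and 1 in NGP, with a median difference of 0.68 against -0.19 for all members. These 6 calls make up 60% of the list, close to the 62.0% of all members called. With the spread matched the counts were 3 and 3 and the median was -0.12, after GC adjustment the counts were 7 and 0, and on the mitochondrial scale the median was 4.60. METTL3, the methyltransferase itself, had enrichments of 0.81, 0.23 and 0.53 in the Kelly RIP libraries and -0.05, -0.49 and -0.41 in those of NGP. The libraries did not overlap, and the difference was small at 0.86 ± 0.26 (SE; edgeR adjusted p = 0.0134). It was 0.14 in treated cells (edgeR adjusted p = 0.806). METTL3 shares exon bases with TOX4. METTL14 went the other way, with 0.92, 1.03 and 0.75 in Kelly and 1.55, 2.40 and 2.17 in NGP, a difference of -1.19 ± 0.34 (SE; edgeR adjusted p = 0.00976). After GC adjustment it was 0.56 (edgeR adjusted p = 0.132), so its direction turned.

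ALKBH5, a demethylase, had the largest difference of the group. Its Kelly libraries held 22.4 to 24.9 CPM in input and 58.5, 63.6 and 86.1 CPM in RIP, and its NGP libraries 45.1 to 48.8 CPM in input and 29.8, 13.2 and 12.2 CPM in RIP. RIP was above input in each Kelly library and below it in each NGP library. The difference was 3.15 ± 0.41 (SE; edgeR adjusted p = 3.21e-05), and it was 2.97 in treated cells. At 1 day, Kelly enrichment of ALKBH5 was -0.57. RBM15B (2.44) and RBM15 (1.72), which bring the complex to its targets, and METTL16 (1.08), a separate methyltransferase, were also higher in Kelly, though RBM15 and METTL16 lost their calls with the spread matched. With GC adjustment and the spread matched together, ALKBH5 (3.50) and METTL3 (1.43) were still called (edgeR adjusted p = 0.00148 and 0.0272). RBM15B was not (0.93, edgeR adjusted p = 0.365). WTAP, the scaffold of the complex, had overlapping libraries at 1.28 to 1.91 and 1.03 to 1.36, with a difference of 0.50 ± 0.26 (SE; edgeR adjusted p = 0.132). After GC adjustment WTAP was called higher in Kelly, at 1.51 (edgeR adjusted p = 0.000328). FTO, the other demethylase, gave -0.15 ± 0.38 (SE; edgeR adjusted p = 0.785), and its sign changed with the processing.

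Of 11 readers, 3 were called higher in Kelly and 7 in NGP, with a median of -0.85. In either direction 90.9% of the list was called, against 62.0% of all members (28.6% higher in Kelly and 33.4% in NGP). After GC adjustment the counts were 3 and 1 and the median was 0.48. HNRNPA2B1, a nuclear RNA-binding protein, was the clearest. It went from 1237 to 1378 CPM in Kelly input to 159.5, 258.1 and 188.5 CPM in Kelly RIP, and from 1023 to 1113 CPM in NGP input to 2281, 4045 and 4483 CPM in NGP RIP. It was thus depleted in Kelly and enriched in NGP, a difference of -4.24 ± 0.35 (SE; edgeR adjusted p = 1.78e-06). FMR1, the fragile X protein, differed by -3.30 and HNRNPC by -1.89, and both calls were lost after GC adjustment (-1.52, edgeR adjusted p = 0.133, and -0.30, edgeR adjusted p = 0.396). YTHDF1 (1.36) and YTHDF2 (0.97), cytoplasmic readers of the YTH family, were higher in Kelly, whereas YTHDC1 (-0.95) and YTHDC2 (-1.45) were higher in NGP. The calls of YTHDC1 and YTHDC2 were lost after GC adjustment, and those of YTHDF2 and YTHDC2 with the spread matched.

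**Figure D4:**
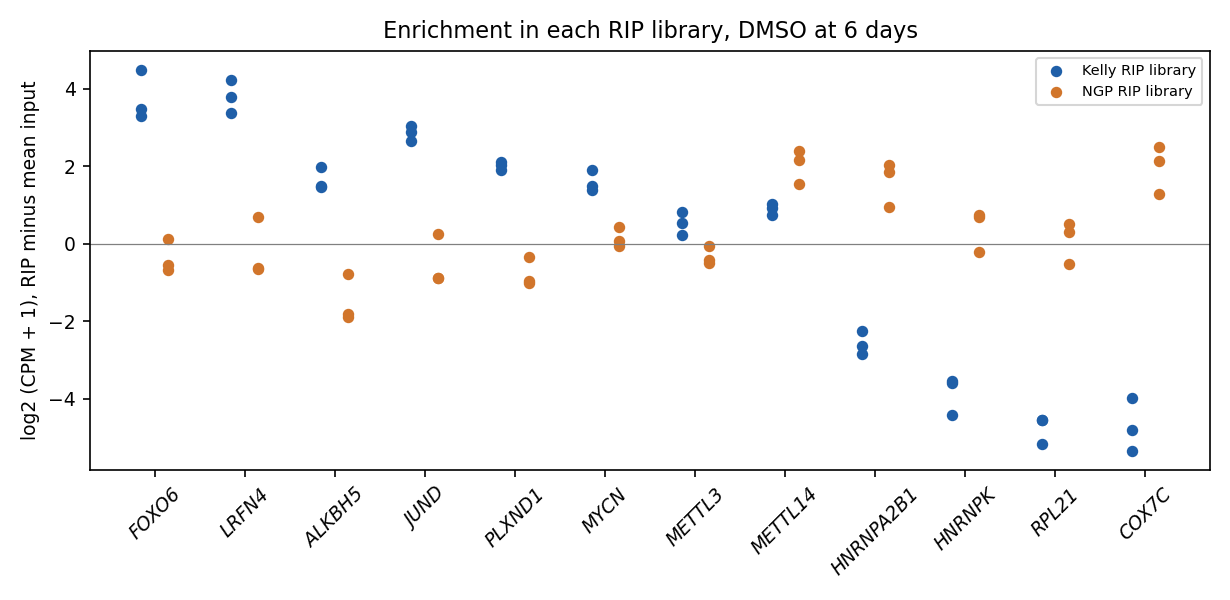
Enrichment in each RIP library, as log2 (CPM + 1) in RIP minus the mean of the line's inputs, for 12 genes; each point is 1 library, blue for Kelly and orange for NGP. The points of the lines do not overlap in any of the genes shown, and METTL3 and METTL14 have the smallest gaps. Directions are relative to the bulk of mRNAs; on the mitochondrial scale METTL14 is higher in Kelly.

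Of 25 members that regulate the adrenergic state, 17 were called higher in Kelly and 2 in NGP (median 1.31; 14 were higher in Kelly in treated cells), and 9 and 1 with the spread matched. In either direction 76% of the list was called, against 62.0% of all members (28.6% higher in Kelly and 33.4% in NGP). HAND2, which specifies sympathetic neurons, had 2357 to 2428 CPM in Kelly input and 31570, 28130 and 22720 CPM in Kelly RIP. In NGP it had 2645 to 2836 CPM in input and 11450, 5798 and 5049 CPM in RIP. It was enriched in both lines, more so in Kelly, with a difference of 2.30 ± 0.36 (SE; edgeR adjusted p = 0.000119). INSM1 (2.54), TBX2 (2.29) and GATA2 (1.95) were higher in Kelly as well. GATA3 (-0.51) was not called. The 2 higher in NGP were TCF4 (-2.84) and LMO1 (-1.59), of which LMO1 was not called with the spread matched. After GC adjustment the list's counts were 19 and 4. With the spread matched as well, HAND2 (-0.50, edgeR adjusted p = 0.559) and INSM1 (0.49, edgeR adjusted p = 0.586) lost their calls. TCF4 (-0.74, edgeR adjusted p = 0.443) lost its call too.

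MYCN, the amplified oncogene of both lines, had 5208 to 5362 CPM in Kelly input and 12340, 14210 and 17870 CPM in Kelly RIP. In NGP it had 5424 to 6363 CPM in input and 8970, 6683 and 5980 CPM in RIP. Kelly RIP lay above all inputs, whereas the NGP values overlapped their inputs. The difference was 1.46 ± 0.28 (SE; edgeR adjusted p = 0.000585), and 1.03 in treated cells (edgeR adjusted p = 0.0142). After GC adjustment it was 1.12 (edgeR adjusted p = 0.00277), and with the spread matched as well 0.19 (edgeR adjusted p = 0.831).

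Of 22 axon guidance members, 18 were called higher in Kelly and 0 in NGP by edgeR (median 1.42; 18 and 0 at an unadjusted p under 0.05, by DESeq2 and by limma voom), and 20 of the 22 differences were above 0 before any test. This was 81.8% of the list, against 62.0% of all members called and 28.6% called higher in Kelly. PLXND1, a semaphorin receptor, had 176 to 182 CPM in Kelly input and 654, 638 and 699 CPM in Kelly RIP, and 132 to 152 CPM in NGP input and 123, 74.6 and 72.0 CPM in NGP RIP. RIP was several times input in Kelly and below every input in NGP, a difference of 2.77 ± 0.26 (SE; edgeR adjusted p = 2.90e-06). PLXNB1 (2.65) and the semaphorin SEMA4C (2.6) followed. With GC adjustment and the spread matched together, PLXND1 (1.21), PLXNB1 (1.87) and SEMA4C (1.61) were still called higher in Kelly. Of 13 receptor tyrosine kinase and neurotrophin receptor members, 7 were higher in Kelly and 1 in NGP (median 1.00). The called share was 61.5%, close to the 62.0% of all members. ROR2 (2.46), GFRA2 (2.36), NGFR (2.22) and ALK (2.06) were among the first, and PTK7 (-1.28), not called with the spread matched, was the last. NGFR and ROR2 also differed in expression in treated inputs (edgeR adjusted p = 7.85e-06 and 4.31e-05). On both adjustments together, ROR2 (0.77, edgeR adjusted p = 0.365), GFRA2 (0.99, edgeR adjusted p = 0.102) and NGFR (-0.35, edgeR adjusted p = 0.681) were not called.

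Immediate early and other short-lived mRNAs counted 20 members, of which 12 were called higher in Kelly and 0 in NGP by edgeR (median 1.08; 12 and 1 at an unadjusted p under 0.05, by DESeq2 and by limma voom). JUND, an AP-1 subunit encoded by 1 exon, went from 240.8 to 248.0 CPM in Kelly input to 1797, 1477 and 1648 CPM in Kelly RIP. In NGP it went from 140.4 to 214.5 CPM to 231.7, 97.6 and 97.3 CPM. NGP replicate 1 lay above its inputs and the other NGP RIP libraries below. The difference was 3.30 ± 0.40 (SE; edgeR adjusted p = 1.87e-05) and 1.25 after GC adjustment. IER5L gave 3.29 and IER5 2.50, both enriched in each line, and the call of IER5 was lost with the spread matched (edgeR adjusted p = 0.0659). With GC adjustment and the spread matched together, JUND (0.25, edgeR adjusted p = 0.702) and IER5L (-1.06, edgeR adjusted p = 0.177) were not called. The list's called share was 60%, close to the 62.0% of all members, and its matched counts were 8 and 1. Of 152 members named ZNF, mostly zinc finger transcription factors, 76 were higher in Kelly and 12 in NGP (median 0.83). Their called share was 57.9%, and their matched counts were 56 and 35. Of 157 members made of 1 exon, 97 were higher in Kelly and 25 in NGP (median 1.38). Their called share was 77.7%, and their matched counts were 61 and 29. This list includes mitochondrially encoded mRNAs such as MT-CYB, described below as higher in NGP.

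Most cell cycle genes on the lists were called higher in NGP. Of 35 DNA replication members, 1 was called higher in Kelly and 21 in NGP (median -1.31), and of 37 mitosis and kinetochore members 3 and 27 (median -1.40). In either direction, 62.9% of the replication list and 81.1% of the mitosis list were called, against 62.0% of all members. Of all members, 28.6% were called higher in Kelly and 33.4% in NGP. With the spread matched the counts were 6 and 13 for replication and 3 and 21 for mitosis. CDC6, which loads the replicative helicase, went from 39.5 to 41.9 CPM in Kelly input to 1.84, 3.49 and 2.47 CPM in Kelly RIP. In NGP it went from 44.3 to 52.6 CPM to 40.3, 63.4 and 76.9 CPM. It was depleted in Kelly and close to input in NGP, a difference of -4.03 ± 0.40 (SE; edgeR adjusted p = 4.31e-06). CDC45 (-3.35), RFC4 (-3.49), the spindle checkpoint gene MAD2L1 (-4.05), CDK1 (-4.22) and the kinesin KIF23 (-4.46) were also higher in NGP. After GC adjustment the median was -0.57 for replication and -0.48 for mitosis, with 14 and 13 members higher in NGP and 2 and 8 in Kelly. The lists' median GC contents were 48.0% and 42.3%. With GC adjustment and the spread matched together, CDC6, CDC45, RFC4 and KIF23 were still called. MAD2L1 (edgeR adjusted p = 0.0761) and CDK1 (edgeR adjusted p = 0.529) were not.

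Splicing factors of the SR and hnRNP families were called higher in NGP for 23 of 31 members and in Kelly for 3 (median -1.42, and -0.80 after GC adjustment). In either direction 83.9% of this list was called. HNRNPK had -3.53, -3.59 and -4.41 in the Kelly RIP libraries and -0.20, 0.70 and 0.75 in those of NGP, and differed by -4.33. HNRNPH1 differed by -4.14. Chromatin regulators were divided, with 16 of 47 members higher in Kelly, among them the demethylase KDM6B (2.78), and 11 higher in NGP, among them the SWI/SNF subunit SMARCB1 (-2.72) and the Polycomb subunit SUZ12 (-2.37). The call of SUZ12 was lost after GC adjustment (-0.55, edgeR adjusted p = 0.438). The called share of the chromatin list was 57.4%, against 62.0% of all members. The list's counts were 11 and 13 with the spread matched and 22 and 7 after GC adjustment. With both steps together SMARCB1 was still called (-2.81, edgeR adjusted p = 0.00436) and KDM6B was not (0.86, edgeR adjusted p = 0.233).

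Ribosomal protein mRNAs were nearly all called higher in NGP. Of 79 members, 0 were called higher in Kelly and 73 in NGP by edgeR (median -2.71; DESeq2 gave 0 and 73, limma voom 0 and 74, and p without adjustment below 0.05 also 0 and 73). Their median enrichment was -4.25 in Kelly, -1.52 in NGP and -3.60 in Kelly at 1 day, but single members such as RPS23 (0.99 in NGP) were not depleted in NGP. RPL21 had 696.7 to 795.4 CPM in Kelly input and 27.7, 29.5 and 17.8 CPM in Kelly RIP. Its NGP libraries held 841.7 to 1174 CPM in input and 743.5, 1449 and 1226 CPM in RIP. It was depleted in Kelly and near input in NGP, differing by -4.91 ± 0.38 (SE; edgeR adjusted p = 1.58e-06). RPS23 (-6.80) and RPL34 (-6.35) had the largest differences. With the spread matched, 41 members were higher in NGP and 9 in Kelly, and after GC adjustment 71 and 1. Their copies in the genome can share fragments, so single values are uncertain.

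Nuclear genes of the respiratory chain were called higher in NGP for 50 of 68 members and in Kelly for 2 (median -1.83). In either direction 76.5% of the list was called, against 62.0% of all members. All 13 mitochondrially encoded mRNAs were called higher in NGP (median -3.95). These transcripts are made inside mitochondria, away from METTL3. MT-CYB, a subunit of complex III, had 6004 to 6162 CPM in Kelly input and 180.9, 194.4 and 80.2 CPM in Kelly RIP. In NGP it had 1573 to 2476 CPM in input and 1216, 1818 and 1718 CPM in RIP. RIP was depleted in Kelly and overlapped input in NGP, a difference of -4.77 ± 0.43 (SE; edgeR adjusted p = 2.41e-06). The list's median enrichment was -4.11 in Kelly at 6 days, -1.65 in Kelly at 1 day and -0.43 in NGP, so the 6-day Kelly value was not shared by the other Kelly time point. In treated cells 9 of the 13 were called higher in NGP (median -2.13).

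Neuronal structure and secretion genes showed no common direction. The called shares were 48.4% for cytoskeleton and neurite genes and 53.3% for granule and catecholamine genes, against 62.0% of all members. Of 31 cytoskeleton and neurite members, 8 were higher in Kelly and 7 in NGP (median -0.01), the latter including STMN2 (-2.98), STMN1 (-2.79) and the motor KIF5C (-2.42). Of 15 granule and catecholamine members, 3 were higher in Kelly, including the neuropeptide precursor VGF (2.42), and 5 in NGP, including the vesicle proteins SYT1 (-5.00) and SYP (-1.77). After GC adjustment the counts were 1 and 6, and VGF was not called (0.29, edgeR adjusted p = 0.280). Of 7 mesenchymal state members, 3 were higher in Kelly, including FOSL2 (2.36), and 2 in NGP, FN1 (-2.53) and ITGB1 (-3.28). The called share of this list was 71.4%. With the spread matched FN1 was not called (edgeR adjusted p = 0.0718). Of 2 replication-dependent histone members, 0 were called by edgeR in either direction, and 0 passed 0.05 without adjustment. DESeq2 called 0 of them, and limma voom called 1, higher in NGP. Both differences lay below 0.

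**Figure D5:**
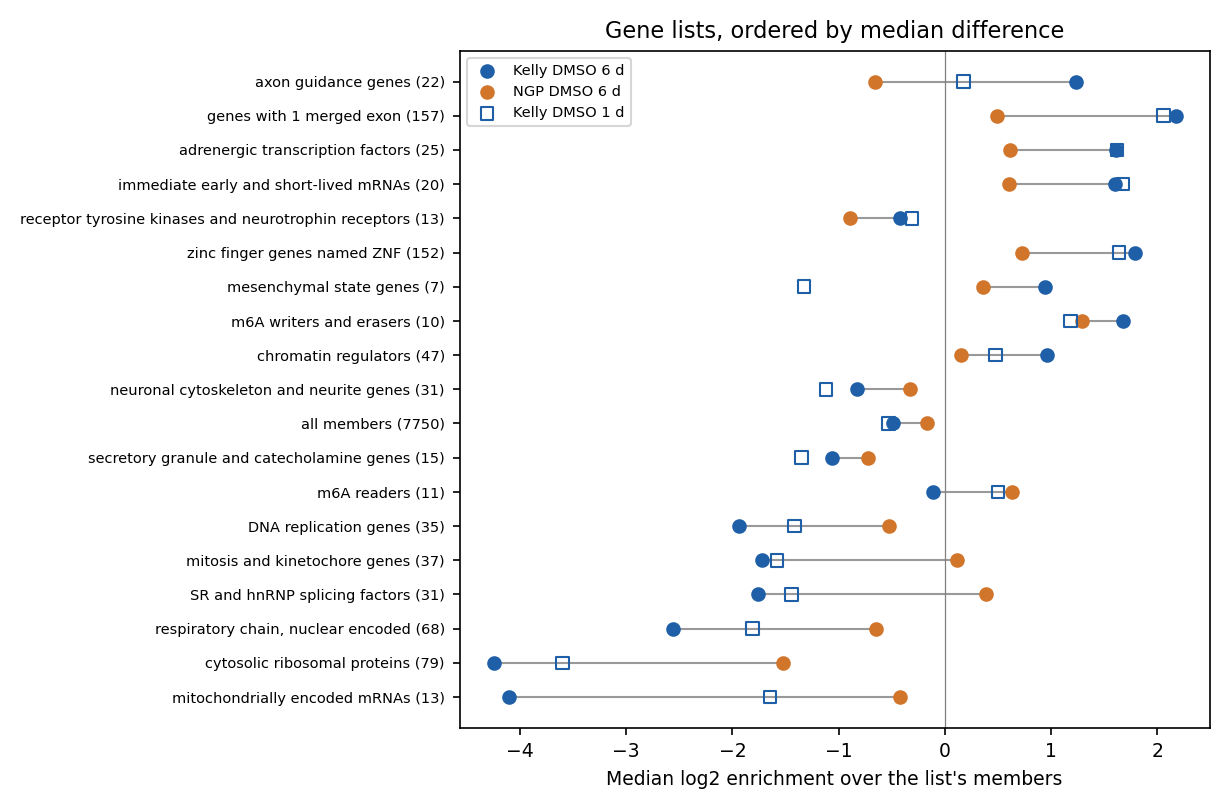
Median log2 enrichment of each gene list in Kelly (blue) and NGP (orange) with DMSO at 6 days and in Kelly at 1 day (open squares), with the number of members in brackets, ordered by the median difference. Kelly medians run from -4.25 to 2.17 and NGP medians from -1.52 to 1.29. Directions are relative to the bulk of mRNAs; on the mitochondrial scale every list but the mitochondrially encoded mRNAs is higher in Kelly.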

How the data were processed

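The authors deposited 1 table of raw fragment counts per gene and library. Per the file headers, featureCounts 1.5.3 counted paired fragments on exons and summed them by gene name, with GENCODE 33 (GRCh38, protein-coding genes only). Fragments on exon bases shared by genes were therefore not assigned, and strand was not used. The submitters' processing notes name FastQC 0.11.5, Trimmomatic 0.36, HISAT2 2.1.0 and deepTools 2.0. The members and gene lists were chosen with earlier results of these data known.

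Counts were fitted with edgeR 4.0.16 (glmQLFit and glmQLFTest, R 4.3.3; TMM; filterByExpr, minimum count 10 and minimum total 15), with 4 group means and the interaction of line and library type, two-sided, Benjamini-Hochberg at 0.05. In the library values, enrichment is log2(CPM + 1) on the TMM scale in RIP minus the mean of the group's inputs; printed CPM are relative to all counted fragments of the library. A gene at 0 in all libraries of a group has a floor of 3 counts per library, which covers counting error only. GC content came from the longest protein-coding GENCODE 44 transcript of the same name (95.5% of names found; 96.0% of their exons at identical coordinates).

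Genes named are MYCN and, of the m6A enzymes, METTL3, METTL14, WTAP, ALKBH5 and FTO; the 10 largest differences each way among members called with and without spread matching whose libraries do not overlap; the 5 largest each way among members enriched in 1 line only; up to 3 per list; and the 3 highest and 3 lowest in both lines. Further list members were named after their values were seen. On simulated counts of 13370 genes, of which 200 were changed, 9% of 2-fold and 69% of 4-fold differences were recovered. There, 0.0265% of unchanged members were called. In the data, 46.1% of genes tested were called, so the adjusted threshold differed and these shares may not carry over. Alternatives were RLE factors, DESeq2 1.42.0, limma 3.58.1 voom, other filters, replicate blocks, mitochondrial factors, thinning, a fit of the 36 cultured libraries, and each library left out; the GC adjustment was added later.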

Additional observations from a re-analysis of the deposited data

Results flagged for a closer look

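The results below are listed because the effect of pulldown differed between the lines by a test of the difference itself (edgeR quasi-likelihood, Benjamini-Hochberg). The count of members with a difference was 4806, the count with a difference of at least 2-fold was 4256, and the count after matching the spread was 3971. Among members enriched in 1 line and at or below 0 in the other, the differences towards Kelly were 4.31 for FOXO6, 3.93 for LRFN4, 3.86 for TPGS1, 3.71 for ASAP2 and 3.67 for TSC22D4. Towards NGP they were -7.45 for JTB, -6.65 for COX7C, -6.16 for C11orf74, -5.72 for NACA and -5.26 for COX6C. ASAP2 had an enrichment of -2.18 in Kelly at 1 day, and COX6C one of 1.51 in the xenografts, each on the other side of 0 from the 6-day Kelly value. C11orf74 was not called in treated cells (-2.49, edgeR adjusted p = 0.184). Groups of 3 libraries are too small for a test of single outlying libraries.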

How the results depend on the processing

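The counts of called members were 4806 (all), 4256 (at least 2-fold) and 3971 (spread matched). Leaving out each library in turn gave 4303 to 5098, 3887 to 4493 and 3114 to 4488. With a minimum of 50 CPM, 3004 members remained and the counts were 2138, 1798 and 1775, since fewer genes were counted. Mitochondrial mRNA factors gave 6628, 6628 and 400, and the split towards Kelly went from 46.2% to 99.5% of calls and, with the spread matched, from 52.3% to 10.0%; the cause was not tested. The GC adjustment gave 4555, 3829 and 1682, and with the replicate block as well 4326, 3775 and 1330. RLE factors, DESeq2, voom, no low-count filter, a fit of the members alone, the replicate block, the fit of 36 libraries and thinning kept the 3 counts within 1.5 times. The replicate block alone gave 4612, 4230 and 3683. Whether replicate numbers pair an input with a RIP library could not be decided. The deviations of same-numbered input and RIP libraries correlated at 0.0133 to 0.0896 in Kelly and at -0.0287 to 0.0105 in NGP. Pairs of unlike number ran from -0.0811 to 0.0541 in Kelly and from -0.0598 to 0.0398 in NGP. Correlations so near 0 neither show pairing nor exclude it. The block changed no call of a named gene.

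The SD gap of 0.86 ranged from 0.83 to 0.88 with each library left out, and was 1.05 with a pseudocount of 0.1. On the mitochondrial scale these differences changed sign: TCF4 (0.80), SUZ12 (1.86), SMARCB1 (1.17), CDC45 (0.57), RFC4 (0.83), FTO (3.94), METTL14 (2.84), HNRNPC (2.04), FMR1 (0.10), FN1 (1.24), ITGB1 (0.62), MAD2L1 (0.15), KIF23 (0.20), KIF5C (1.84), STMN1 (1.17), STMN2 (0.98), SYP (2.01), HNRNPH1 (0.15) and ZNF330 (0.53). The larger of both lines' enrichments became 0.47 for NPW and 0.83 for CYC1. With each library left out in turn the difference of FTO ran from -0.41 (without NGP input replicate 1) to 0.054 (without Kelly RIP replicate 1). FTO also turned to 0.67 with the GC adjustment and to 0.61 with GC adjustment and block, and METTL14 to 0.56 in both of the last. The GC adjustment ended the calls of SUZ12, HNRNPC, FMR1, VGF and METTL14, and of the readers YTHDC1 and YTHDC2. It made calls of WTAP, PHF3, RPL36AL, CYC1 and NPW. The cause was not tested. Depth limits genes with few fragments in Kelly RIP, and p-values rest on 3 libraries a group.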
